A study of Rattus norvegicus with 6 samples.

Results

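The genes described here take part in the clearance of dead cells and debris: the receptor tyrosine kinases Tyro3, Axl and Mertk (the TAM receptors), their ligands Gas6 and Pros1, the bridging protein Mfge8, the engulfment adaptor Elmo1, and the phagocyte receptors Marco, Stab1 and Siglec1. They were chosen by gene symbol, 10 genes in all, among the 22517 probes of an Illumina rat expression BeadChip. The platform annotation gave 8 probes for 7 of the 10 genes, of 13336 named genes on the array. No probe carried the symbol Gas6, Stab1 or Siglec1, so these genes were not analysed here. The tissue was granulation tissue from uncoated cellulose implanted subcutaneously in Sprague-Dawley rats, 10 weeks old, with no treatment or genetic change given in the labels. Implants of rats 1, 2 and 3 were taken at day 1 and implants of rats 4, 6 and 7 at day 3, with 1 array and a different rat for each sample. The comparison of the days follows how expression changed while early granulation tissue formed.

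Dying cells expose phosphatidylserine on their surface. Gas6 and protein S (Pros1) bind this lipid and, with the other end of the molecule, a TAM receptor on the phagocyte, while Mfge8 links the lipid to integrins that contain the alpha v chain. Receptor engagement leads through adaptors such as the ELMO proteins, which act with DOCK exchange factors, to activation of the GTPase RAC and to uptake of the corpse. In wounds, neutrophils that enter early die in the tissue and are taken up mainly by macrophages, and TAM signalling is also known to dampen cytokine production in these cells. Scavenger receptors such as Marco bind modified lipoproteins, microbes and debris. Siglec1 (sialoadhesin) binds sialic acid on other cells.

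The value table holds quantile-normalised intensities, so all 6 arrays had a median of 104 and 11978 probes (53.2%) above an estimated background limit of 101. Levels are given as the deposited intensity of each rat or as log2 intensity after background correction, a scale on which the limit lies at 6.42. The arrays of day 3 correlated with each other at r = 0.988 to 0.992 across 12218 probes, and those of day 1 at 0.957 to 0.991. Rat 3 stood apart: its 7 tested adipocyte markers had a mean level of 13.14, against 10.04 in rat 1 and 10.86 in rat 2, and 10.11 to 10.77 at day 3. Values without rat 3 are therefore given for each clearance gene tested. Where a rat is named after "without", the fit was repeated with that array left out. The labels name granulation tissue, and fibroblast and macrophage markers were detected: of 14 tested fibroblast markers and 23 tested macrophage markers none was below the limit throughout a day, though Adgre1 and Cx3cr1 lay near it, while Cd68 and Csf1r had no named probe.

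Of the 6 clearance genes that were bright enough to test, 2 rose between day 1 and day 3 and 4 did not pass an adjusted p of 0.05 in the limma test. The 2 that rose were Mfge8 and Pros1, which encode secreted proteins that bridge phosphatidylserine to receptors. Among all 8698 named genes tested 13.5% rose and 10.7% fell, 24.2% in either direction, and of the 12218 probes tested 22.3% passed. None of the 6 clearance genes fell, at the adjusted threshold or at an unadjusted p of 0.05, and 4 were higher at the unadjusted threshold, which 19.9% of all named genes passed upward and 17.1% downward. Their median difference was 0.36 on the log2 scale, against -0.01 for all named genes. The 3 rats of one day did not overlap with those of the other for 4 of the 6 genes, all higher at day 3. Among all named genes tested 22.7% were separated in this way with day 3 higher and 18.9% with day 3 lower, 41.6% in all. With 6 genes these counts are a description of the group.

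The start regions of both genes that rose are shown, so that the sequence around the start of the genes that rose can be compared. Each runs from 250 bases before to 50 after the annotated start, from RefSeq on build GRCr8, 5′ to 3′ on the gene's own strand, and the capitals mark the GC box GGGCGG or its reverse complement. The Mfge8 region lies at chr1:142489382-142489681 on the minus strand, and the Pros1 region at chr11:13677049-13677348 on the plus strand.
Mfge8: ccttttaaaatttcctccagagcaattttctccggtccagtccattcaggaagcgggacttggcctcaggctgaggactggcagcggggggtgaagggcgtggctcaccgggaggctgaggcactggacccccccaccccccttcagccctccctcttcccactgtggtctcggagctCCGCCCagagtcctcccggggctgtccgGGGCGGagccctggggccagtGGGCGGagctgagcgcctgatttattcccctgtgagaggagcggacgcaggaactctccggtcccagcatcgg
Pros1: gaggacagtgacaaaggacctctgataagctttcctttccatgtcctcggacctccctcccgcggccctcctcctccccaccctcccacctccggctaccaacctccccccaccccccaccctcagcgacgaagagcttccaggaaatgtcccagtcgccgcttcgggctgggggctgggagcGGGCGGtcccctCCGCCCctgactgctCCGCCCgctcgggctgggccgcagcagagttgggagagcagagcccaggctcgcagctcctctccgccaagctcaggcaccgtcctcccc
Each region held 3 GC boxes, and the 2 regions had a GC content of 65.7% and 69%, where the median of 33469 rat start regions was 51.7%. The GC content does not set them apart from members that did not pass. These had 81.3% for Tyro3, 70% for Elmo1, 67.3% for Mertk and 63% for Axl. The GC box was present in 33.1% of these regions, counted on both strands. It was also present in the regions of genes whose levels did not pass the test: Elmo1 held 3, Mertk 2, Axl 1 and Tyro3 6. The AP-1 motif TGANTCA was found in neither Mfge8 nor Pros1, the nuclear receptor motif AGGTCA in neither, and the CCAAT box in neither. These motifs occur in 7.33%, 16.2% and 37.5% of all start regions. A match is a run of letters, not a measured binding site.

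Mfge8, the glycoprotein that links phosphatidylserine to integrins, had deposited intensities of 1472 in rat 1, 1421 in rat 2 and 2223 in rat 3 at day 1, and of 4567 in rat 4, 6574 in rat 6 and 5051 in rat 7 at day 3. All day 3 values lay above all day 1 values, and rat 3 was the highest of its day. On the log2 scale the level went from 10.69 ± 0.36 to 12.38 ± 0.27 (SD, n = 3 rats per day). The difference was 1.69 (SE 0.22, adjusted p = 0.00401 by limma), a 3.22-fold rise with a 95% interval of 2.24 to 4.62. Only 1.74% of the named genes tested had a larger upward difference. The difference was 1.89 without rat 3, and it passed the test with any 1 array left out, from 1.53 to 1.89.

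Pros1, protein S, is a plasma anticoagulant as well as a TAM ligand. Its intensities were 477, 464 and 559 in rats 1, 2 and 3 and 1144, 1320 and 1026 in rats 4, 6 and 7. The days did not overlap, and the lowest day 3 value was well clear of rat 3, the highest of day 1. The log2 level went from 8.92 ± 0.15 to 10.16 ± 0.18 (SD, n = 3 rats per day), a difference of 1.24 (SE 0.13, adjusted p = 0.00245 by limma). This is a 2.36-fold rise with a 95% interval of 1.89 to 2.95, and 3.35% of the named genes rose more. With 1 array left out the difference ran from 1.14 to 1.33 and passed the test each time; without rat 3 it was 1.33.

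**Figure D1:**
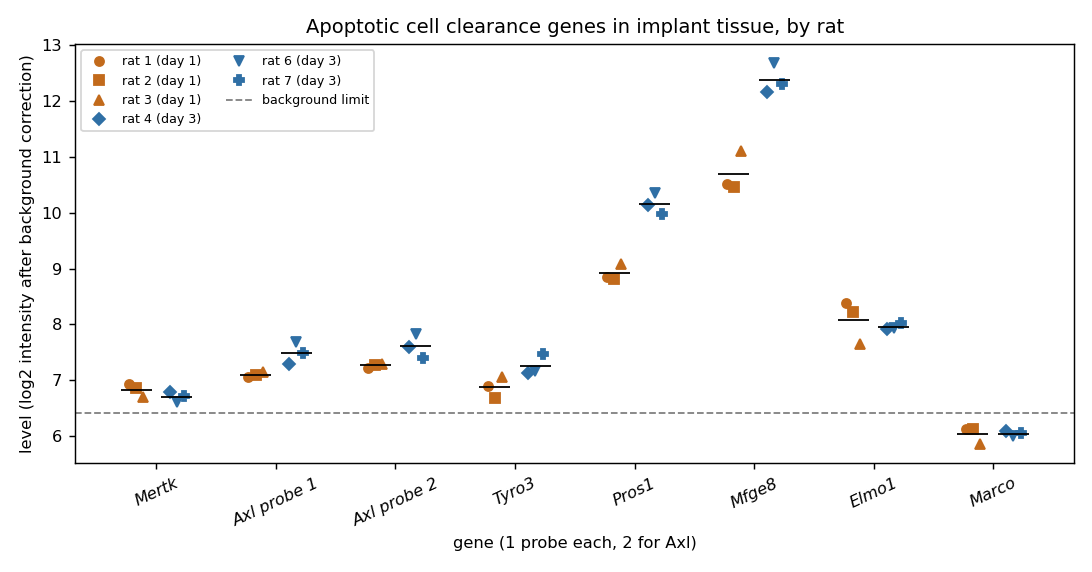
Log2 intensity after background correction (vertical axis) of each clearance gene probe (horizontal axis) in each rat, with day 1 in orange, day 3 in blue, a black bar at the mean of 3 rats and a dashed line at the background limit of 6.42. Mfge8, Pros1, Tyro3 and both Axl probes are separated between the days, while Mertk and Elmo1 overlap. The TAM receptors lie between 6.62 and 7.83, and Marco lies below the limit in every rat.

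The 3 TAM receptors gave dim signals, between 113 and 243 in deposited intensity, and none passed the test. Axl was measured by 2 probes. The brighter probe read 165, 171 and 172 at day 1 and 208, 243 and 183 at day 3. The other read 149, 153 and 156 at day 1 and 171, 221 and 194 at day 3. In both probes the day 1 rats were close together and all 3 day 3 rats were higher, with rat 6 the highest. The log2 difference was 0.34 (SE 0.13, adjusted p = 0.111, 95% interval 0.03 to 0.65) for the brighter probe and 0.38 (SE 0.12, adjusted p = 0.0689) for the other. For the brighter probe it was 0.35 without rat 3, and with 1 array left out the adjusted p ran from 0.0701 to 0.298.

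Tyro3, the TAM receptor best known from the nervous system, read 134, 118 and 148 at day 1 and 155, 158 and 192 at day 3. The day 3 values again lay above those of day 1, though rats 3 and 4 were close. The difference was 0.38 (SE 0.14, adjusted p = 0.113, 95% interval 0.03 to 0.72). With 1 array left out it ran from 0.27 to 0.46 and the adjusted p from 0.0458 to 0.292, and it passed in 1 of the 6 fits, that without rat 3. Both receptors passed when limma weighted the arrays by their quality, with an adjusted p of 0.0298 for Axl and 0.0432 for Tyro3.

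Mertk, a receptor through which macrophages take up apoptotic cells in mice, read 138, 132 and 119 at day 1 and 126, 113 and 120 at day 3. The days overlapped, and all 6 values lay above the limit of 101 by little. The difference was -0.13 (SE 0.11, adjusted p = 0.481) with a 95% interval from -0.38 to 0.13. It was -0.19 without rat 3. The offset of 50 added in the background correction shrinks differences of dim probes, and with an offset of 16 the difference was -0.18.

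The level of Axl relative to Mertk on the same array was 0.29, 0.41 and 0.60 in rats 1, 2 and 3 and 0.80, 1.21 and 0.68 in rats 4, 6 and 7 (log2 difference between both probes). Only its change between days can be read, since the probes differ in brightness. All day 3 rats had a higher value than the day 1 rats, and the means differed by 0.47. An exact two-sided permutation test gave p = 0.1, the smallest that 3 against 3 rats can give. With 1 array left out the change ran from 0.31 to 0.58.

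Elmo1, an adaptor of RAC activation that is abundant in leukocytes, read 347, 313 and 216 at day 1 and 257, 261 and 275 at day 3. The day 3 rats fell between rat 3, the lowest of day 1, and the other two of that day. The difference was -0.12 (SE 0.19, adjusted p = 0.732). Without rat 3 it was -0.34 with an adjusted p of 0.0502, and without rat 1 it was 0.027, so the direction rests on single arrays. Macrophage markers had a mean level of 10.92, 10.80 and 10.40 in rats 1, 2 and 3. In rats 4, 6 and 7 their mean level was 10.88, 10.34 and 10.38. Whether macrophage content plays a part in the Elmo1 signal was not tested.

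Marco, a class A scavenger receptor of some macrophages, read between 73.3 and 85.4 on all 6 arrays, below the limit of 101, and was not tested. Its transcript was not detectable by this probe on either day, which gives no fold. Rat 3 had the lowest value.

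**Figure D2:**
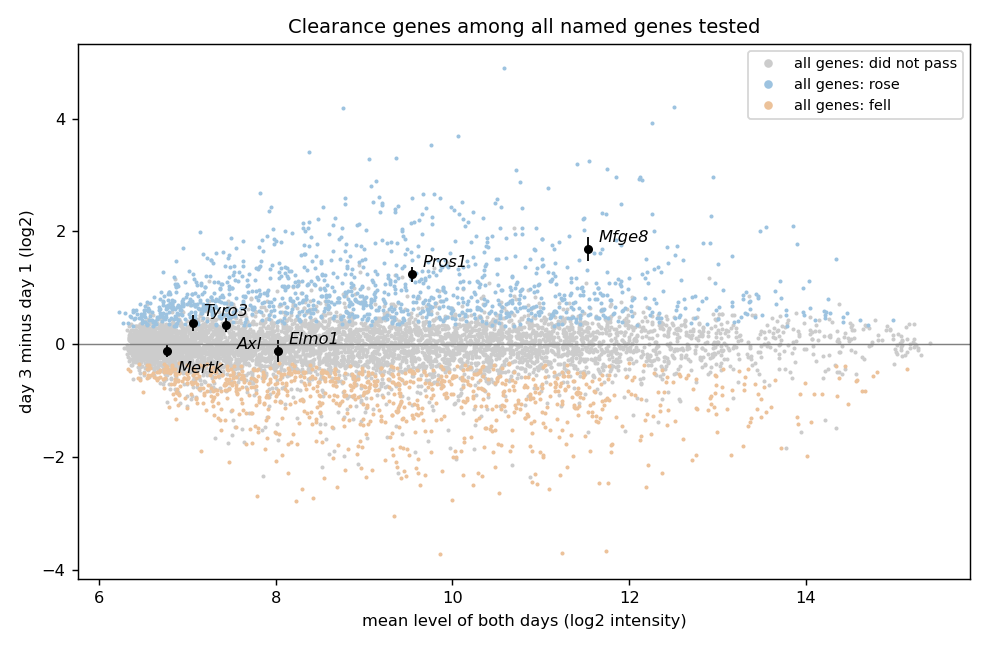
Difference between day 3 and day 1 (log2, vertical axis) against the mean level of both days (log2 intensity, horizontal axis) for 8698 named genes, coloured by the limma test, with the 6 tested clearance genes in black and bars of 1 SE. Mfge8 and Pros1 stand among the genes that rose, while Axl, Tyro3, Mertk and Elmo1 lie inside the grey cloud.

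The named genes with the most similar course over the 6 arrays were found by the root mean square distance between mean-centred log2 levels, among 8692 genes. For Mfge8 they were Mxra8, a membrane protein with immunoglobulin domains (distance 0.12), and Prnp, the prion protein (0.13). For Pros1 they were Clec11a, a secreted C-type lectin (0.07), and Qsox1, a secreted sulfhydryl oxidase (0.07). Mxra8 rose by 1.86 (SE 0.22), Prnp by 1.62 (SE 0.16) and Qsox1 by 1.17 (SE 0.16). Like Mfge8, Mxra8 was higher in rat 3 (10.58) than in rat 1 (9.81) or rat 2 (9.87). Axl lay closest to Rps2, a ribosomal protein, and Ptprs, a receptor phosphatase, and Tyro3 to Pycr3, an enzyme of proline synthesis, and F2rl1, a protease-activated receptor. Mertk lay closest to Fig4 and Slc6a20a, and Elmo1 to Sesn3 and Cdyl2.

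Genes that act beside the clearance genes were counted by lists, each to be read against the 13.5% of all named genes that rose and the 10.7% that fell. Of 10 tested phosphatidylserine receptors and bridging proteins 4 rose and 0 fell in the limma test (6 and 1 at an unadjusted p of 0.05), with a median difference of 0.54. Itgb5, the beta chain that pairs with alpha v into a receptor of Mfge8, rose by 2.31 (SE 0.26, adjusted p = 0.00271), from 9.41, 8.47 and 8.87 in rats 1, 2 and 3 to 11.03, 11.08 and 11.55 in rats 4, 6 and 7. The probes used here carried no symbol of its partner Itgav, or of Itgb3. The chains of complement C1q, which coats dying cells, made up the other calls: C1qa rose by 1.69 (SE 0.29), C1qb by 1.27 (SE 0.19) and C1qc by 1.62 (SE 0.24). Calr, an uptake signal when on the cell surface, differed by 0.35 (SE 0.12, adjusted p = 0.086). Havcr2 (TIM-3), a phosphatidylserine receptor of myeloid cells and lymphocytes, gave differing results in its 2 probes: the brighter differed by -0.32 (SE 0.15, adjusted p = 0.186) and the other fell by 1.25 (SE 0.16, adjusted p = 0.00411). No probe carried the symbol Timd4 or Lrp1. Adgrb1 (BAI1) was below the limit on all 6 arrays.

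Of 13 tested scavenger and endocytic receptors 3 rose (23.1%), 2 fell (15.4%) and 8 did not pass, with a median of 0.43. In a list of 13 genes these shares do not stand clear of the 13.5% and 10.7% of all named genes. The median was 0.25 without rat 2 and 0.13 when rat 4 was left out, and 1 gene fell in each fit that omitted rat 1, 2, 4, 6 or 7. Msr1 had no named probe. Scara3 and Scarf2, receptors of the scavenger families, rose by 2.17 (SE 0.18, adjusted p = 0.00127) and 2.06 (SE 0.19, adjusted p = 0.0016). Olr1, the receptor of oxidised lipoproteins, fell by 2.18 (SE 0.29, adjusted p = 0.00458), from 11.94, 11.73 and 11.03 at day 1 to 9.77, 9.46 and 8.95 at day 3. The haemoglobin receptor Cd163 had levels of 9.54 to 9.59 at day 1 and 10.29 to 10.66 at day 3. Cxcl16, a chemokine whose membrane form binds oxidised lipids, fell by 0.85 (SE 0.21, adjusted p = 0.0319, 0.11 without rat 2). Cd36 differed by -0.95 (SE 0.33, adjusted p = 0.0864) and was highest in rat 3 (13.13), and the mannose receptor Mrc1 by 0.43 (SE 0.43, adjusted p = 0.563).

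**Figure D3:**
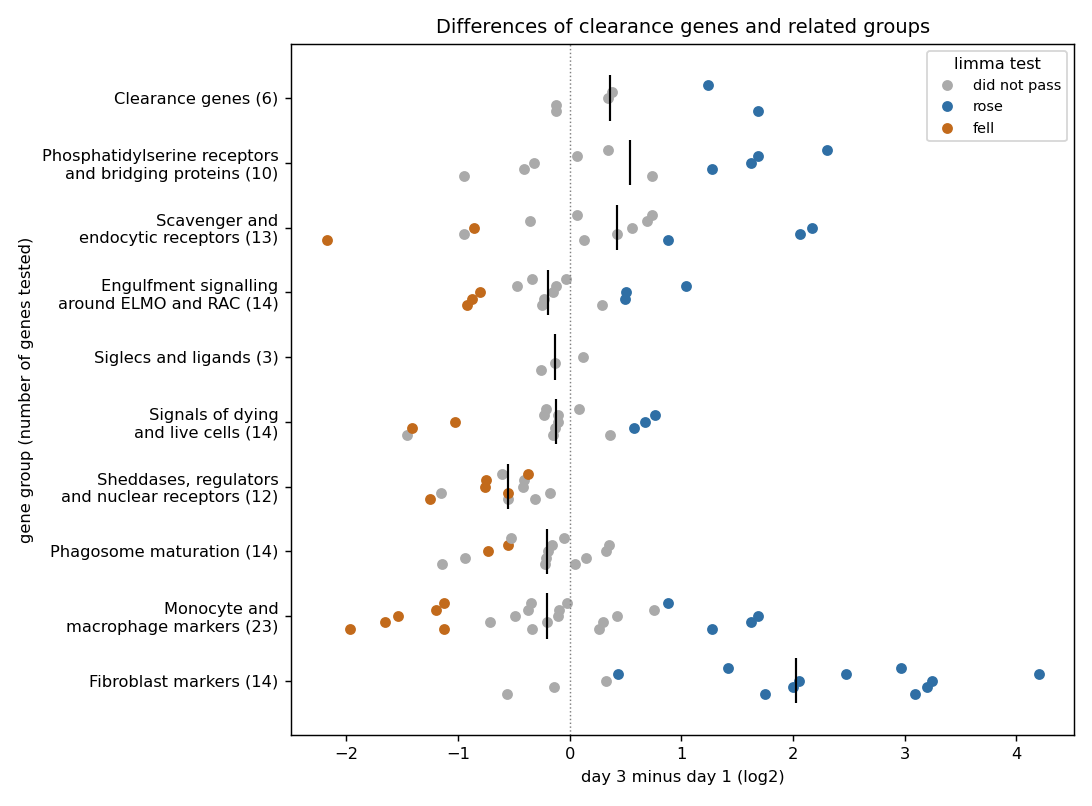
Difference between day 3 and day 1 (log2, horizontal axis) of each tested gene, 1 row per group with the number of genes tested, a black bar at the group's median, and colours for the limma test. Fibroblast markers have the highest median of the groups drawn, 2.03, macrophage markers spread to both sides of 0, and the sheddases, regulators and nuclear receptors all lie below 0.

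In the engulfment pathway around ELMO and RAC 3 genes rose and 3 fell of 14 tested, with a median of -0.19. Leaving out rat 1 gave 1 risen and 2 fallen, leaving out rat 2 or 6 gave 0 of either, and leaving out rat 3 gave 3 risen and 5 fallen. The fit that omitted rat 4 gave 2 risen and 0 fallen, and that omitting rat 7 gave 1 risen and 0 fallen. Among them Rac2, the RAC GTPase of blood cells, fell by 0.92 (SE 0.19, adjusted p = 0.0184, 0.0692 without rat 6). Vav1, a RAC exchange factor of blood cells, fell by 0.88 (SE 0.20, adjusted p = 0.0245, 0.092 without rat 6). Bcar1, a scaffold of adhesion signalling, rose by 1.04 (SE 0.21, adjusted p = 0.0165, 0.0638 without rat 6). Gulp1, an engulfment adaptor, was above the limit on 0 of 3 arrays at day 1 and on 3 of 3 at day 3. It rose by 0.51 (SE 0.13, adjusted p = 0.0357, 0.115 without rat 2). Its mean at day 3 was 1.33-fold the limit, a ratio that takes no account of the spread between rats. Ptk2 (focal adhesion kinase) rose by 0.50 (SE 0.11, adjusted p = 0.0209, 0.0754 without rat 2), and the adaptor Crk fell by 0.80 (SE 0.18, adjusted p = 0.0221, 0.0757 without rat 7). Rac1 differed by -0.25 (SE 0.16, adjusted p = 0.356) and Elmo3 by -0.47 (SE 0.14, adjusted p = 0.0565). No probe carried the symbol Elmo2, Dock1 or Dock2.

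Of 3 tested siglecs and sialoadhesin ligands 0 rose and 0 fell in the limma test (0 and 0 at an unadjusted p of 0.05). Spn, the sialylated leukosialin, had mean levels of 10.22 and 9.96, and Siglec10 of 7.15 and 7.27.

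Among 14 tested genes for signals of dying and live cells 3 rose and 2 fell, with a median of -0.12. Leaving out rat 1 or 4 gave 3 risen and 1 fallen, leaving out rat 2 or 6 gave 1 of each, and leaving out rat 7 gave 1 risen and 2 fallen. With rat 3 omitted there were 3 of each. Cd47, the surface protein that restrains uptake, rose by 0.76 (SE 0.10, adjusted p = 0.00383), from 9.98, 10.03 and 10.02 at day 1 to 10.67, 10.77 and 10.89 at day 3. Its receptor Sirpa differed by -0.21 (SE 0.22, adjusted p = 0.58). The phospholipid scramblase Plscr1 fell by 1.41 (SE 0.26, adjusted p = 0.0114). P2ry2, a receptor for nucleotides released by dying cells, fell by 1.03 (SE 0.22, adjusted p = 0.0189, 0.0733 without rat 6). The chemokine Cx3cl1, which attracts phagocytes, rose by 0.67 (SE 0.15, adjusted p = 0.0226, 0.0853 without rat 6), and the scramblase family member Plscr3 by 0.58 (SE 0.12, adjusted p = 0.0176, 0.0742 without rat 6).

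Of 12 tested sheddases, regulators and nuclear receptors of dead-cell uptake 0 rose and 5 fell in the limma test (0 and 9 at an unadjusted p of 0.05), with a median of -0.55. Leaving out rat 1, 6 or 7 gave 1 fallen gene, leaving out rat 2 or 4 gave 2, and leaving out rat 3 gave 9. Adam17, a protease that cleaves Mertk from the cell surface in mice and humans, fell by 0.75 (SE 0.16, adjusted p = 0.0187, 0.0741 without rat 6). Rxra, the partner of LXR and PPAR receptors, fell by 0.55 (SE 0.10, adjusted p = 0.0116). The cytokine Il10 fell by 0.76 (SE 0.20, adjusted p = 0.0353, 0.117 without rat 2) and Socs3, a cytokine signalling inhibitor, by 1.25 (SE 0.32, adjusted p = 0.0364, 0.118 without rat 7). Ifnar1, a chain of the interferon receptor, fell by 0.37 (SE 0.10, adjusted p = 0.0451, 0.136 without rat 7). The LXR gene Nr1h3, which drives Mertk in mouse macrophages, had levels of 10.14, 10.13 and 11.52 in rats 1, 2 and 3 and of 10.00 to 10.55 at day 3. Pparg had 8.13, 8.53 and 11.47 at day 1 and 8.09 to 8.32 at day 3. For both genes rat 3 was the highest and the days overlapped, with adjusted p = 0.537 for Nr1h3 and 0.393 for Pparg. Adam10 lay near the limit, with 6.51 and 6.33.

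Of 14 tested genes of phagosome maturation 0 rose and 2 fell in the limma test (1 and 4 at an unadjusted p of 0.05), with a median of -0.20. The 14.3% that fell are close to the 10.7% of all named genes. Leaving out rat 1 or 7 gave 1 fallen gene, leaving out rat 2 or 6 gave 0, and leaving out rat 3 or 4 gave 4. Atg7, an enzyme of autophagy, fell by 0.73 (SE 0.14, adjusted p = 0.015, 0.0613 without rat 2), and Rab5a, a GTPase of early endosomes, by 0.55 (SE 0.12, adjusted p = 0.0182, 0.0691 without rat 6).

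The tissue is a mixture of cells, so fewer cells of a type and less RNA per cell cannot be told apart. Markers of several cell types moved with the days. Their counts, too, are to be read against the 13.5% of all named genes that rose and the 10.7% that fell. Of 14 tested fibroblast markers 11 rose and 0 fell in the limma test (12 and 1 at an unadjusted p of 0.05; 11 and 2 without rat 3), and the summed intensity of the list went from 82084 to 106662 at day 1 to 175925 to 198523 at day 3. Of 8 tested endothelial markers 6 rose and 0 fell (6 and 0 at an unadjusted p of 0.05; 3 and 0 without rat 2 or 6). Of 5 tested smooth muscle and pericyte markers 3 rose and 0 fell in the limma test (5 and 0 at an unadjusted p of 0.05), and 1 rose in each fit that omitted rat 2, 6 or 7. Rgs5, 1 of the 3, was above the limit on 0 of 3 arrays at day 1, and its mean at day 3 was 1.14-fold the limit. The rises of Mfge8, Pros1 and Itgb5 thus went with higher stromal markers, whose part in them was not tested. The macrophage list was mixed and the neutrophil list was lower. Of 23 tested macrophage markers 4 rose (17.4%) and 6 fell (26.1%). Their summed intensity was 134499 to 163462 at day 1 and 122113 to 148534 at day 3. Leaving out rat 1, 2, 6 or 7 gave 3 fallen markers and leaving out rat 3 gave 10, with 4 risen each time. Of 14 tested neutrophil markers 0 rose and 11 fell in the limma test (1 and 12 at an unadjusted p of 0.05; 1 and 9 without rat 1), with a median of -1.84. All 7 tested mast cell markers fell, with a median of -1.35. Leaving out rat 2 gave 3 fallen and leaving out rat 7 gave 4. Fcer1a and Ms4a2 were above the limit on 1 of 3 arrays at day 3. At day 1 Hdc was lowest in rat 3 (10.52), while the other tested mast cell markers were lowest in rat 1. Of 9 tested lymphocyte markers and 5 tested dendritic cell markers 0 passed in the limma test. At an unadjusted p of 0.05, 0 lymphocyte markers passed and 1 dendritic cell marker rose. Leaving out rat 3 gave 4 fallen lymphocyte markers and 1 fallen dendritic cell marker.

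The macrophage markers that rose were the 3 C1q chains and Cd163. Those that fell included Itgam, the CD11b integrin shared with neutrophils, by 1.66 (SE 0.20), and Cd14, the lipopolysaccharide co-receptor, by 1.97 (SE 0.25). Aif1, a calcium-binding protein of macrophages, had 14.02 and 13.93 (adjusted p = 0.839), and Adgre1 (F4/80), above the limit on 2 of 3 arrays of each day, had 6.62 and 6.92 (adjusted p = 0.544). Mertk and Elmo1 had differences of -0.13 and -0.12 beside a median of -0.20 for the macrophage list. When rat 3 was left out, Mertk had -0.19, Elmo1 -0.34 and the list -0.33. In the same order the values were -0.07, 0.027 and -0.13 without rat 1, and -0.11, -0.05 and -0.21 without rat 2. They were -0.17, -0.10 and -0.25 without rat 4, and -0.08, -0.11 and -0.16 without rat 6. Without rat 7 they were -0.13, -0.15 and -0.11. The part of macrophage content in the values of Mertk and Elmo1 was not tested. Mfge8 and Pros1 had differences of 1.69 and 1.24. The median was 2.03 for fibroblast markers, 0.90 for endothelial markers and 0.97 for smooth muscle and pericyte markers. Adipocyte markers, high in rat 3, had 0 that rose and 0 that fell of 7 tested in the limma test (0 and 0 at an unadjusted p of 0.05), with Lep below the limit and no named probe for Plin1; their median was -1.34, and 0.02 without rat 3. The rises of Mfge8 and Pros1 were as large without rat 3, at 1.89 and 1.33.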

How the data were processed

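RNA of 6 implants was measured on 1 Illumina rat BeadChip array each, labelled with biotin from 100 ng of total RNA per the labels. The deposited values are linear probe intensities that the authors quantile-normalised between arrays, as the values show; the submitters' processing notes name limma, and the scanner's background setting is not given in the sources used here. A second deposited table was not used, because the names of its 12 columns match no sample.

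The intensities were corrected with normexp (offset 50), quantile-normalised and put on the log2 scale. The background mode was 85.9, and the limit of 101 is the 95th percentile of a normal distribution fitted to the values below the mode. Probes above it on at least 3 of 6 arrays were kept. Symbols come from the platform annotation, present for 13787 of 22517 probes, and each gene is represented by its brightest kept probe. Every kept probe was fitted with limma 3.58.1 in R 4.3.3 (lmFit, eBayes, day as the coefficient, two-sided), with Benjamini-Hochberg adjustment over all 12218 kept probes. The fit was run on simulated data in which each probe had independent noise of the same spread on all arrays. That setting holds no outlying array such as rat 3, so it does not test the calls made here. The number of arrays limits the precision, and all p-values rest on 3 rats per day.

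The clearance genes and all lists were chosen with earlier results of these data known. Genes named are all members, the 2 most similar genes of each, up to 3 members that changed most per pathway list (the 2 brightest where none passed), and a set of pathway and macrophage genes fixed by name. C1qb, Cxcl16, Gulp1, Calr, Elmo3, Adgrb1, Rxra, Ptk2, Crk, Cx3cl1, Plscr3, Ifnar1, Cx3cr1, Cd14, Lep, Plin1, Rgs5, Hdc, Fcer1a and Ms4a2 were added after their values were seen. Alternatives were other background corrections, cyclic loess, other filters, a trend and robust variance, array weights, values raised to the limit, the other Axl probe and each array left out. List counts with each array left out and the comparison of dim genes with the limit were chosen after seeing the data.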

Additional observations from a re-analysis of the deposited data

How the results depend on the processing

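The rises of Mfge8 and Pros1 passed the test under all 8 other settings, with differences from 1.61 to 1.93 and from 1.22 to 1.38, and with each array left out in turn. With array weights 4 clearance genes rose instead of 2, since Axl and Tyro3 also passed; in the other 7 settings the number was 2, and with 1 array left out it ran from 2 to 3. The number fallen was 0 throughout. Elmo1 changed direction without rat 1 (0.027, adjusted p = 0.948); its difference ran from -0.34 to 0.027 with 1 array left out. Over all probes 2729 passed, from 2419 to 4052 under other settings and from 1317 to 3797 with 1 array left out; the lowest numbers came without rat 2 (1317), rat 6 (1343) and rat 7 (1458). The cause was not tested. Marco, Gas6, Stab1 and Siglec1 give no difference, so the planned ratios of Gas6 to Pros1, Siglec1 to Marco and Stab1 to Siglec1 were not computed, and only Axl has another kept probe. No paired analysis was possible because the days share no rat number. Signals near the background limit, as for the TAM receptors, limit what can be read from them: with an offset of 16 the difference of Tyro3 was 0.51 in place of 0.38.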
